A study of Mus musculus with 6 samples.

Results

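The matrix metalloproteinases (MMPs), their tissue inhibitors (TIMPs) and the related ADAM and ADAMTS proteases were compared in brown adipose tissue (BAT) between sST2-knockout (sST2-KO) mice and wild-type (WT) littermates. Members were the rows of the count table whose symbols start with Mmp, Adam or Adamts and a digit, or consist of Timp and 1 digit, and that held at least 10 counts over the 6 libraries. Of 35976 rows, 79 had such a symbol. Of these, 16 were at 0 in every library, 11 had 1 to 9 counts, and 52 were members, namely 16 Mmp, 4 Timp, 17 Adam and 15 Adamts genes. The row nearest outside the limit was Adamts16 with 8 counts, and the member nearest inside was Adamts20 with 13. Among the 52 members, 45 were abundant enough to be tested and 7 (Adam2, Adam3, Adam4, Adam5, Adam32, Adamts17 and Adamts20) were not.

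The 6 mice were males of 10 weeks on a C57BL/6J background, with 3 mice in each genotype. In sST2-KO mice, CRISPR/Cas9 editing had removed the intron of Il1rl1 that separates exons 8 and 9, which carries the stop codon of soluble ST2 (sST2), the decoy form of the interleukin-33 receptor, in every cell of the body. The BAT of all 6 mice, WT included, had been surgically denervated, and all were kept at 10 °C for 8 h before collection, so the data hold neither an innervated nor a warm control. RNA-seq libraries of whole BAT gave 8159442 to 12874809 counts each. Il1rl1 was at 1.77, 1.79 and 0.740 CPM (counts scaled to a common library size) in the WT libraries and at 3.83, 8.19 and 14.0 CPM in the sST2-KO libraries, and gene counts do not separate sST2 from the membrane receptor, so they do not check the genotype.

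MMPs are secreted or membrane-bound zinc proteases that cleave collagens, gelatin, elastin and other matrix proteins. TIMPs bind the active site of these enzymes and block it. ADAMs are membrane-anchored relatives that shed the outer part of cytokines, growth factors and receptors, and ADAMTS enzymes are secreted relatives that cut proteoglycans or trim procollagens. In adipose tissue these genes come from adipocytes, fibroblasts, vessels and leukocytes, and they take part in the remodelling of the matrix around growing or inflamed fat.

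Several Mmp genes share a short promoter element close to their start. Promoters are therefore shown first for the members with the largest rises. They are also shown for other Mmp genes that held this element but did not pass the test described below. The sequences run 5′ to 3′ on the strand of the gene in GRCm39 and end at the base before the start of the GENCODE canonical transcript. Capitals mark matches, on either strand, to the AP-1 motif TGANTCA or to the C/EBP motif TTGCNNAA. The CRE motif TGACGTCA and the NF-kB motif were searched in the same way over 250 bases. No 2 of the matches in capitals overlap. The 3 promoters of Mmp9 (chr2:164789889-164790138, plus strand), Mmp8 (chr9:7558207-7558456, plus strand) and Adam8 (chr7:139572476-139572725, minus strand), the members with the largest rises, are shown over 250 bases.
Mmp9: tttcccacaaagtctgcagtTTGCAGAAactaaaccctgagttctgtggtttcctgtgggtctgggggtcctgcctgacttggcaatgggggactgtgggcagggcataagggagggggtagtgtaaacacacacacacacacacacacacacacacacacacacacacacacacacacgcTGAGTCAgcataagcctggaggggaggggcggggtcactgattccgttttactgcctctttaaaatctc
Mmp8: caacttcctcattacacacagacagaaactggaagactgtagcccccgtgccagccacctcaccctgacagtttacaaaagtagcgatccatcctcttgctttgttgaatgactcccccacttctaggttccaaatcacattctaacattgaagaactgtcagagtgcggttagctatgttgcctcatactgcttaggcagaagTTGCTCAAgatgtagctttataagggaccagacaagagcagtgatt
Adam8: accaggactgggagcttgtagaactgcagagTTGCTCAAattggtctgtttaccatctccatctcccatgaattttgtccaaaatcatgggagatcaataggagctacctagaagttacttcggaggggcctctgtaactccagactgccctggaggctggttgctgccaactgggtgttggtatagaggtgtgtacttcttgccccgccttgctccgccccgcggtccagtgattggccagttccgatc
The last 100 bases are shown for Mmp3 (chr9:7445722-7445821), Mmp12 (chr9:7347274-7347373), Mmp13 (chr9:7272414-7272513) and Mmp19 (chr10:128626673-128626772), all on the plus strand, because they held the AP-1 letters near the start as Mmp9 did.
Mmp3: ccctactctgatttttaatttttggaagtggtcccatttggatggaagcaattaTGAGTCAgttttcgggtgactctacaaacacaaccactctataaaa
Mmp12: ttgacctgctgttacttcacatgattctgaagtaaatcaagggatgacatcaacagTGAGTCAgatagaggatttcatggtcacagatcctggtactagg
Mmp13: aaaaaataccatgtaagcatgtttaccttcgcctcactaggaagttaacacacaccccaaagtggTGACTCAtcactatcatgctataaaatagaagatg
Mmp19: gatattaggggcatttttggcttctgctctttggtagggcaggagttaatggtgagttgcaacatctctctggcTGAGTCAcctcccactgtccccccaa

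The AP-1 letters began 69 bases before the start in Mmp9, 46 in Mmp3, 44 in Mmp12, 35 in Mmp13 and 26 in Mmp19. The promoters of Mmp8 and Adam8 lacked them and shared instead the 8 letters TTGCTCAA, which began 46 bases before the start of Mmp8 and 219 before that of Adam8. Among the 45 members tested, AP-1 letters were found in 8 promoters (17.8%), C/EBP letters in 8 (17.8%), NF-kB letters in 5 (11.1%) and CRE letters in 0. Over all 21751 promoters of the same length, the shares were 6.17%, 9.34%, 7.62% and 1.7%. Of the 8 members with them, Mmp9 and Adam19 passed the test described below, and Mmp3, Mmp12, Mmp13, Mmp19, Mmp28 and Adamts3 did not. A match describes letters in this window and does not show that a factor binds there.

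Levels are given as CPM scaled by edgeR's TMM factors, in the order of replicates 1 to 3. A gene was called when edgeR's quasi-likelihood test gave an adjusted p under 0.05 over all 14542 genes tested and its level differed more than 2-fold. Called higher in sST2-KO BAT were 7 of the 45 members (15.6%), namely Mmp9, Mmp8, Adam8, Timp1, Adamts14, Adamts4 and Adam19, against 9.04% of all genes tested. Called lower were Adam12 and Timp4, 2 of the 45 (4.44%), against 7.1% of all genes tested. At any fold change, 10 of the 45 members passed the adjusted p, against 19.6% of all genes, and the added member was Adamts1. The median log2 fold change (sST2-KO over WT) was 0.21 over the members and 0.03 over all genes, and by family it was 0.44 for Mmp, -0.29 for Timp, 0.04 for Adam and 0.49 for Adamts genes. In 12 members (26.7%) every sST2-KO library lay above every WT library, against 21.8% of all genes, and in 6 (13.3%) every sST2-KO library lay below, against 19.7%.

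**Figure D1:**
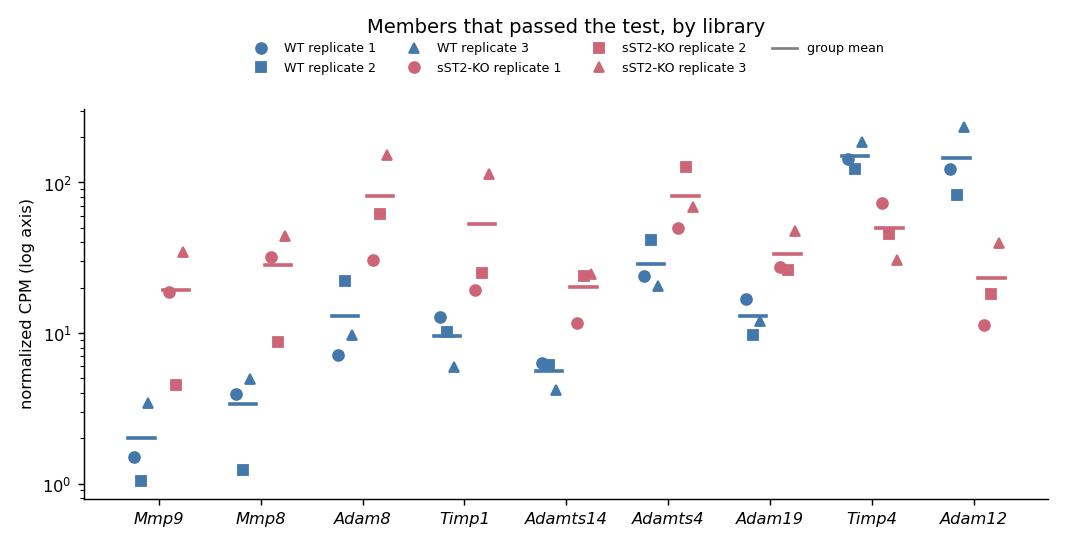
Normalized CPM (log axis) of the 9 called members in each of the 6 libraries, with WT in blue, sST2-KO in red, a symbol for each replicate and a line at each group mean. The groups do not overlap in any of the 9, and Timp1 and Adam8 lie highest in sST2-KO replicate 3, at 114 and 151 CPM.

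The sST2-KO libraries differed from WT, and from each other, in markers of other cell types, and the part of these in the results below was not tested. In whole tissue, fewer cells of a type and less RNA per cell cannot be told apart. Brown adipocyte markers summed to 8060 to 14856 CPM in WT and to 340 to 1859 CPM in sST2-KO libraries, with 6 of 8 called lower. General adipocyte markers summed to 20631 to 24522 CPM in WT and to 6056 to 12531 CPM in sST2-KO. Neutrophil markers (4 of 9 called higher) summed to 31.9 to 135 CPM in WT and 147 to 708 CPM in sST2-KO, and T cell markers (6 of 7 called higher) to 13.9 to 15.5 CPM and 123 to 151 CPM. Macrophage markers (1 of 10 called higher) summed to 887 to 1216 CPM in WT, to 1446 and 1423 CPM in sST2-KO replicates 1 and 2 and to 6047 CPM in sST2-KO replicate 3. Fibroblast markers (0 of 8 called by edgeR, 1 with an unadjusted p under 0.05 and 1 called lower by DESeq2) were highest in sST2-KO replicate 3, at 10049 CPM, and in WT replicate 1, at 6112 CPM, with 1139 to 2267 CPM in the other 4 libraries. Skeletal muscle markers (0 of 8 called by edgeR, 6 with an unadjusted p under 0.05 and 1 called higher by DESeq2) summed to 6.29 to 1209 CPM in WT and 3441 to 14861 CPM in sST2-KO, and hepatocyte markers stood out in WT replicate 2, at 4207 CPM against at most 32.7 CPM elsewhere. Mast cell markers summed to 15.0 to 28.6 CPM in WT and 34.8, 42.5 and 126.6 CPM in sST2-KO libraries (0 of 5 tested called by edgeR, 3 with an unadjusted p under 0.05, 4 called higher by DESeq2). Smooth muscle and pericyte markers summed to 633 to 702 CPM in WT and 274 to 521 CPM in sST2-KO (0 of 7 called by edgeR, 4 with an unadjusted p under 0.05, 1 called lower by DESeq2), and Schwann cell markers, of which 2 of 5 tested were called lower, to 64.9 to 80.6 CPM and 28.4 to 51.0 CPM. Endothelial markers summed to 1176 to 1557 CPM in WT and 1094 to 1952 CPM in sST2-KO, with 1 of 7 called in each direction. In every list each marker had counts in at least 1 library.

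Both neutrophil-type secreted MMPs rose. Mmp8 encodes neutrophil collagenase, which cleaves fibrillar collagen, and lies on chromosome 9 from 7558457 to 7568487. It had 3.92, 1.23 and 4.93 CPM in WT and 31.8, 8.78 and 43.8 CPM in sST2-KO libraries. Every sST2-KO library was above every WT library, and sST2-KO replicate 2 was the lowest of its group. The mean was 3.36 ± 1.92 CPM (SD, n = 3) in WT and 28.1 ± 17.8 CPM (SD, n = 3) in sST2-KO, with a log2 fold change of 3.08 (SE 0.69, adjusted p = 0.0245, edgeR).

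Mmp9 encodes gelatinase B, which degrades denatured collagen and type IV collagen of basement membranes, and lies on chromosome 2 from 164780439 to 164797771. It had 1.49, 1.04 and 3.45 CPM in WT and 18.8, 4.51 and 34.8 CPM in sST2-KO libraries. The groups did not overlap, but the gap between WT replicate 3 and sST2-KO replicate 2 was small. The mean rose from 1.99 ± 1.28 CPM to 19.3 ± 15.1 CPM (SD, n = 3 each), a log2 fold change of 3.30 (SE 0.78, adjusted p = 0.0283, edgeR). Mmp8 and Mmp9 ranked the 3 sST2-KO libraries in the same order as the sum of the neutrophil markers, which was 479, 147 and 708 CPM in the sST2-KO libraries and 38.8, 31.9 and 135 CPM in the WT libraries. The lowest sST2-KO library and the highest WT library were thus close in the marker sum as well as in both proteases, and the part of neutrophil content in these rises was not tested.

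**Figure D2:**
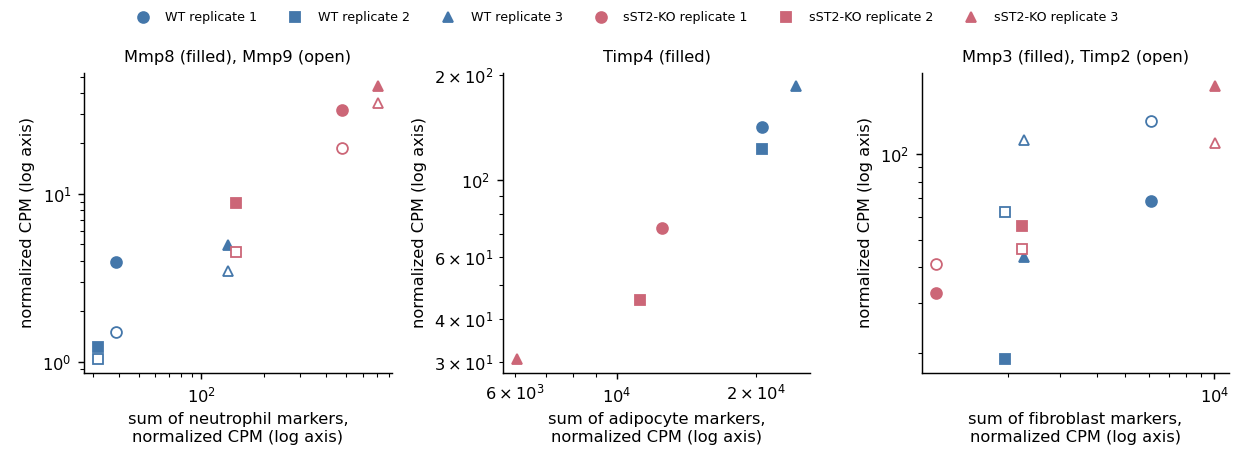
Normalized CPM of 5 members against the summed normalized CPM of a cell type's markers in the same library, both on log axes, with WT in blue, sST2-KO in red and a symbol for each replicate. Mmp8 and Mmp9 are set against neutrophil markers, Timp4 against adipocyte markers, and Mmp3 and Timp2 against fibroblast markers, where WT replicate 1 and sST2-KO replicate 3 lie farthest right.

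The other gelatinase, Mmp2, is made mainly by fibroblasts and other stromal cells and was not called. Mmp2 had 124, 88.5 and 87.0 CPM in WT and 37.8, 46.0 and 114 CPM in sST2-KO libraries. Replicates 1 and 2 of sST2-KO were below every WT library, whereas sST2-KO replicate 3 lay inside the WT range. The log2 fold change was -0.60 (SE 0.42, adjusted p = 0.339, edgeR), and without sST2-KO replicate 3 it was -1.26, with an adjusted p of 0.0319. The other fits that left out a library did not call Mmp2, with adjusted p values of up to 0.597 (edgeR). The second collagenase tested, Mmp13, had 1.21, 0.660 and 0.740 CPM in WT and 0.348, 1.07 and 3.56 CPM in sST2-KO libraries, with a log2 fold change of 0.89 (SE 0.80, adjusted p = 0.462, edgeR). Its sST2-KO values lay on both sides of the WT values.

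Membrane-type MMPs act at the cell surface, and the best known of them, the product of Mmp14, cleaves collagen and activates pro-MMP2 in a complex with TIMP2. Mmp14 had 77.5, 64.1 and 68.5 CPM in WT and 85.9, 114 and 251 CPM in sST2-KO libraries. All 3 sST2-KO libraries were above all WT libraries, with replicate 3 far above the other two. The log2 fold change was 1.10 (SE 0.39), and the adjusted p of 0.0839 by edgeR missed the threshold. DESeq2 gave an adjusted p of 0.0385. The other 4 membrane-type members tested were Mmp15, Mmp17, Mmp24 and Mmp25, with log2 fold changes of -1.36 (Mmp17) to 0.72 (Mmp25), and none of them was called by edgeR with all 6 libraries. DESeq2 called Mmp17 lower, as did edgeR without sST2-KO replicate 2. The other fits that left out a library did not call Mmp17, with adjusted p values of up to 0.193 (edgeR).

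Stromelysin 1 (Mmp3) degrades proteoglycans, laminin and fibronectin and activates other pro-MMPs. Mmp3 had 68.5, 19.0 and 43.6 CPM in WT and 32.5, 55.9 and 173 CPM in sST2-KO libraries, and the groups overlapped. Its log2 fold change was 1.00 (SE 0.67, adjusted p = 0.321, edgeR), and 0.01 without sST2-KO replicate 3. Macrophage metalloelastase (Mmp12) had 0.840, 1.89 and 0.123 CPM in WT and 0.627, 1.30 and 7.70 CPM in sST2-KO libraries, with a log2 fold change of 1.69 (SE 1.06, adjusted p = 0.288, edgeR). Only sST2-KO replicate 3 was above the WT range, and this library also had the highest sum of macrophage markers. Mmp19, which acts on basement membrane proteins, had 83.7, 48.9 and 46.7 CPM in WT and 43.1, 56.7 and 93.0 CPM in sST2-KO libraries, a log2 fold change of 0.10 (SE 0.34, adjusted p = 0.855, edgeR). The remaining members Mmp11, Mmp23, Mmp27 and Mmp28 had log2 fold changes of -0.87 (Mmp11) to 0.89 (Mmp27) and were not called.

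Mmp3, Mmp8, Mmp12, Mmp13 and Mmp27 belong to a run of 10 Mmp genes between 7272514 and 7699587 on chromosome 9. Of the other 5 genes in the run, Mmp1a, Mmp1b, Mmp7 and Mmp20 were at 0 in every library, and Mmp10 had 7 counts, all in sST2-KO replicate 3. Mmp8 was the member of the run that was called. The other 4 had fitted log2 fold changes between 0.89 and 1.69 with adjusted p values of 0.288 to 0.462, and all 5 had their highest level in sST2-KO replicate 3. Mmp8 and Mmp27 lie within the antisense RNA gene Gm31751, which had 2, 2 and 5 counts in WT and 28, 10 and 23 counts in sST2-KO libraries. Whether the counting used the strand is not given in the sources used here, so reads of such pairs may not be separated.

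**Figure D3:**
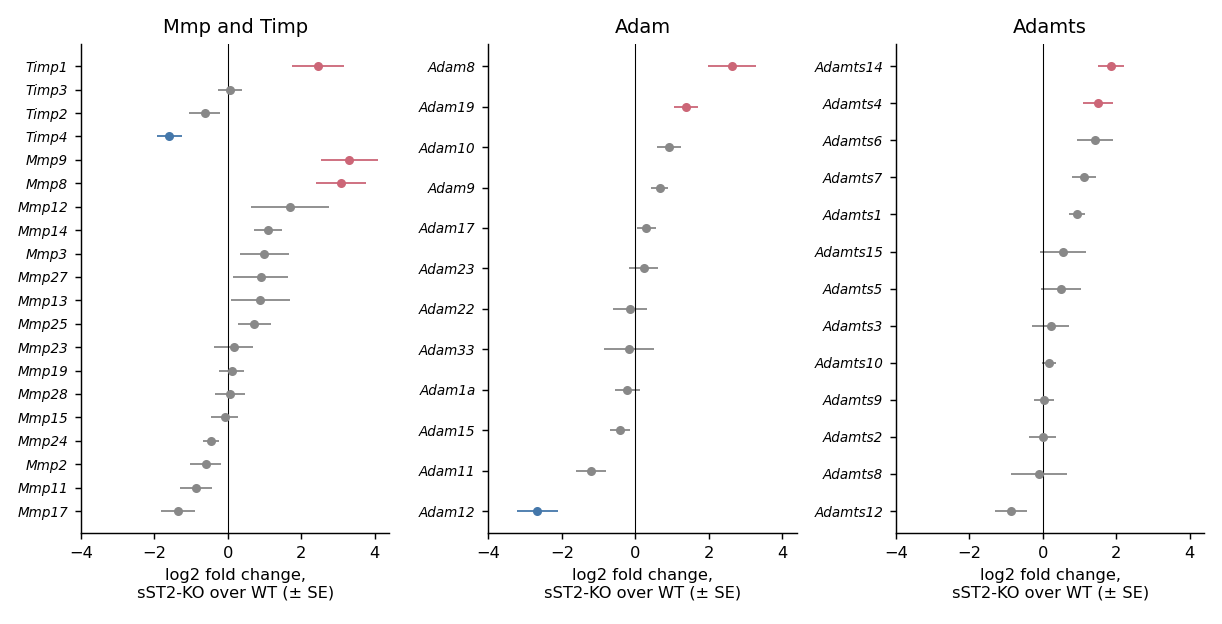
Log2 fold change (sST2-KO over WT) with its standard error for the 45 members tested, ordered within families, with called members in red (higher) or blue (lower) and the others in grey. Mmp9 at 3.30 and Mmp8 at 3.08 stand at the top of the Mmp genes, Timp1 and Timp4 moved in opposite directions, and Adam12 at -2.66 is the lowest of all.

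Of the 4 inhibitors, Timp1 rose and Timp4 fell, and Timp2 and Timp3 did not pass the test. TIMP1 is the inducible inhibitor of most secreted MMPs, including MMP9, and its gene lies on the X chromosome from 20736316 to 20740976. Timp1 had 12.7, 10.1 and 5.92 CPM in WT and 19.2, 25.2 and 114 CPM in sST2-KO libraries. The groups did not overlap, and sST2-KO replicate 3 was far above replicates 1 and 2. The mean was 9.56 ± 3.41 CPM in WT and 52.9 ± 53.3 CPM in sST2-KO (SD, n = 3 each), with a log2 fold change of 2.46 (SE 0.70, adjusted p = 0.0471, edgeR). It was 1.20 when sST2-KO replicate 3 was left out (adjusted p = 0.0721), so that library decided the size of the rise.

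TIMP4 is the inhibitor with the most restricted expression, found mainly in heart and fat, and its gene lies on chromosome 6 from 115187773 to 115229336. Timp4 had 142, 122 and 186 CPM in WT and 72.9, 45.3 and 30.6 CPM in sST2-KO libraries. All 3 sST2-KO values were below all WT values, and the mean went from 150.2 ± 32.5 CPM to 49.6 ± 21.5 CPM (SD, n = 3 each), a log2 fold change of -1.60 (SE 0.34, adjusted p = 0.0215, edgeR). In sST2-KO BAT, Timp4 followed the sum of the adipocyte markers, which was 12531, 11228 and 6056 CPM in replicates 1 to 3, and in WT it was highest in replicate 3, as that sum was. The part of adipocyte content in this fall was not tested.

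TIMP3 binds to the extracellular matrix and also inhibits ADAM17, and TIMP2 takes part in the activation of pro-MMP2. Timp3 had 888, 586 and 679 CPM in WT and 571, 1093 and 578 CPM in sST2-KO libraries, with a log2 fold change of 0.06 (SE 0.34, adjusted p = 0.919, edgeR). Timp2 had 130, 62.5 and 112 CPM in WT and 41.0, 46.4 and 109 CPM in sST2-KO libraries, with a log2 fold change of -0.63 (SE 0.43, adjusted p = 0.330, edgeR). Both overlapped between the groups. Timp1, Timp3 and Timp4 each lie within a synapsin gene on the opposite strand. Counts per library were 6 to 26 for Syn1 (around Timp1), 8 to 32 for Syn3 (around Timp3) and 93 to 357 for Syn2 (around Timp4).

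Divided by the length of each gene's annotated exons, CPM can be roughly compared between members of a family. The comparison depends on that length. Timp3 was the most abundant Timp transcript in every library, with 61.5 to 67.3% of the family in WT and 71.1, 82.2 and 45.0% in sST2-KO replicates 1 to 3. Timp1 held 3.97, 4.82 and 2.23% in WT and 9.98, 7.87 and 37.0% in sST2-KO libraries, and Timp4 held 11.3, 14.8 and 17.7% in WT and 9.56, 3.59 and 2.51% in sST2-KO libraries. Per kb, Timp4 thus exceeded Timp1 in each WT library. Per kb it was close to Timp1 in sST2-KO replicate 1 and below it in sST2-KO replicates 2 and 3. This order depends on exon lengths of 7743 bases for Timp4 and 1957 for Timp1. In CPM without this division, Timp4 was at 72.9, 45.3 and 30.6 and Timp1 at 19.2, 25.2 and 114 in sST2-KO libraries. Timp4 was then below Timp1 in sST2-KO replicate 3 only. The summed Timp level was 163, 107 and 136 CPM per kb in WT and 98.5, 163 and 158 CPM per kb in sST2-KO, with overlap.

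Among the Mmp transcripts, Mmp2 held 27.8, 33.3 and 27.4% of the summed CPM per kb in WT and 12.8, 13.6 and 13.4% in sST2-KO libraries. The 3 sST2-KO shares lay within 1 percentage point of each other, although the sum itself was 83.9, 96.2 and 241 CPM per kb. Mmp14 held 9.92, 13.8 and 12.4% in WT and 16.6, 19.2 and 16.9% in sST2-KO libraries, and exceeded Mmp2 in all 3 sST2-KO libraries and in none of the WT libraries. Mmp8 and Mmp9 held larger shares in every sST2-KO library than in any WT library. The shares were 0.672 to 2.26% and 0.318 to 1.04% in WT, and 3.77 to 15.6% and 1.27 to 6.04% in sST2-KO. In sST2-KO replicate 1 the share of Mmp8 (15.6%) was above that of Mmp2, though its CPM (31.8) was below that of Mmp2 (37.8). Shares within a family depend on each other, and groups of 3 allow no two-sided p below 0.1 in an exact permutation test of 1 share, so none was run.

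**Figure D4:**
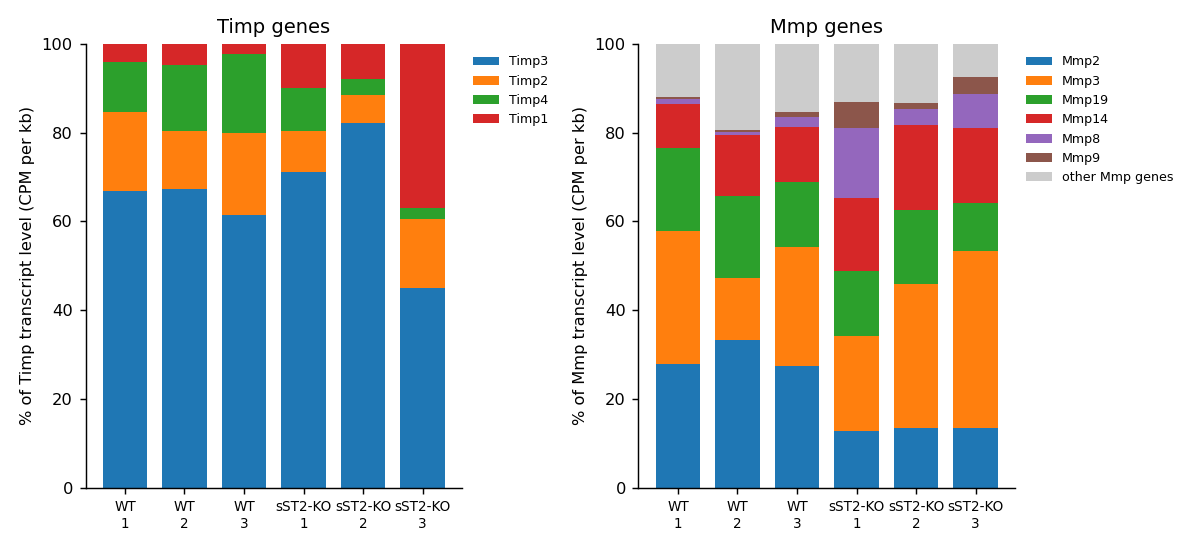
Share (%) of each gene in the summed level (CPM per kb of exon) of the Timp family (left) and the Mmp family (right) in each library. Mmp2 takes 27.4 to 33.3% of the Mmp sum in WT and 12.8 to 13.6% in sST2-KO libraries, and Timp1 reaches 37.0% of the Timp sum in sST2-KO replicate 3.

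Of the ADAM sheddases, Adam8 and Adam19 rose and Adam12 fell. ADAM8 is found on leukocytes and sheds adhesion molecules, and its gene lies on chromosome 7 from 139558845 to 139572475. Adam8 had 7.18, 22.1 and 9.74 CPM in WT and 30.5, 62.2 and 151 CPM in sST2-KO libraries. The groups did not overlap, and replicate 3 was the highest of sST2-KO. The log2 fold change was 2.64 (SE 0.65, adjusted p = 0.0323, edgeR). Unlike Mmp8 and Mmp9, Adam8 was not lowest in sST2-KO replicate 2. Its maximum was in sST2-KO replicate 3, where the macrophage, neutrophil, T cell, fibroblast, mast cell and skeletal muscle sums were all highest. In WT, Adam8 was highest in replicate 2, where the neutrophil sum was lowest and the macrophage sum was not the highest (1216, 1051 and 887 CPM). The part of these cell types in the rise of Adam8 was not tested.

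ADAM19, which sheds neuregulins, is encoded on chromosome 11 from 45946775 to 46038172. Adam19 had 16.9, 9.71 and 12.1 CPM in WT and 27.5, 26.1 and 47.3 CPM in sST2-KO libraries, without overlap. The log2 fold change was 1.38 (SE 0.32, adjusted p = 0.0265, edgeR).

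ADAM12 occurs in mesenchymal cells and in differentiating muscle and fat cells, and its gene lies on chromosome 7 from 133484928 to 133833875. Adam12 had 122, 82.1 and 235 CPM in WT and 11.2, 18.3 and 39.8 CPM in sST2-KO libraries. The highest sST2-KO library was below the lowest WT library, and the mean went from 146.3 ± 79.1 CPM to 23.1 ± 14.9 CPM (SD, n = 3 each). With a log2 fold change of -2.66 (SE 0.56, adjusted p = 0.0209, edgeR), Adam12 had the largest fall of the members. Its share of the summed Adam level per kb was 13.7, 9.94 and 22.6% in WT and 1.44, 1.84 and 2.77% in sST2-KO libraries. In WT, Adam12 ranked the libraries as the adipocyte sum did (20653, 20631 and 24522 CPM), of which the first 2 were nearly equal. In sST2-KO it ranked them opposite to that sum (12531, 11228 and 6056 CPM). Adam12 ranked the sST2-KO libraries as the fibroblast sum did (1139, 2226 and 10049 CPM), but not the WT libraries (6112, 1962 and 2267 CPM). Neither sum was thus followed in both groups. The part of adipocyte, fibroblast or muscle content in its fall was not tested.

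ADAM10 and ADAM17 shed the largest number of known substrates, among them Notch receptors and cadherins (ADAM10) and tumour necrosis factor and EGF receptor ligands (ADAM17). Adam10 had 58.3, 29.1 and 32.8 CPM in WT and 57.9, 71.2 and 98.2 CPM in sST2-KO libraries. The lowest sST2-KO library was just below WT replicate 1, and the log2 fold change of 0.92 (SE 0.32, adjusted p = 0.0808, edgeR) was not called. Without WT replicate 1, Adam10 was called by edgeR, with a log2 fold change of 1.29 and an adjusted p of 0.0345. The other fits that left out a library did not call it, with adjusted p values of up to 0.252 (edgeR). Without sST2-KO replicate 3 its log2 fold change was 0.68 (adjusted p = 0.219, edgeR). Adam17 had 59.6, 48.6 and 61.3 CPM in WT and 52.1, 57.9 and 99.2 CPM in sST2-KO libraries, with a log2 fold change of 0.30 (SE 0.27, adjusted p = 0.458, edgeR). Of the other sheddases tested, Adam9, Adam15 and Adam33 had log2 fold changes of 0.66, -0.41 and -0.17, and none was called. The ADAMs that lack the zinc-binding motif (Adam11, Adam22 and Adam23) had log2 fold changes of -1.21 to 0.23. Adam11 was lower in every sST2-KO library, at 14.8, 13.5 and 4.34 CPM against 22.9, 25.5 and 27.4 CPM in WT. Its adjusted p was 0.0798 (edgeR), and DESeq2 called Adam11 lower. Adam1a, the remaining Adam gene tested, had a log2 fold change of -0.22.

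The summed level of the ADAMTS family was higher in every sST2-KO library than in any WT library. The 15 members added up to 52.4, 51.7 and 52.5 CPM per kb in WT, which are nearly equal, and to 70.9, 111 and 91.8 CPM per kb in sST2-KO libraries. Adamts1 made up 49.5 to 55.0% of the sum in WT and 49.7 to 62.8% in sST2-KO. ADAMTS1 cleaves versican and aggrecan and is induced by inflammation, and its gene lies on chromosome 16 from 85590579 to 85600009. Adamts1 had 142, 148 and 158 CPM in WT and 244, 357 and 250 CPM in sST2-KO libraries. The WT values were close together and all sST2-KO values were above them, with a log2 fold change of 0.92 (SE 0.22, adjusted p = 0.0292, edgeR), which is under 2-fold.

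Adamts4 encodes another proteoglycan-cleaving enzyme and lies on chromosome 1 from 171077986 to 171089841. It had 24.0, 41.6 and 20.6 CPM in WT and 50.2, 126 and 68.3 CPM in sST2-KO libraries. The groups did not overlap, and in both of them replicate 2 was the highest. The log2 fold change was 1.50 (SE 0.41, adjusted p = 0.0401, edgeR), and 1.02 without sST2-KO replicate 2 (adjusted p = 0.0939).

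Adamts14 encodes a procollagen N-propeptidase, an enzyme that trims the amino end of fibrillar procollagens, and lies on chromosome 10 from 61032891 to 61109232. It had 6.34, 6.12 and 4.19 CPM in WT and 11.6, 24.0 and 24.7 CPM in sST2-KO libraries, without overlap. The mean rose from 5.55 ± 1.18 CPM to 20.1 ± 7.38 CPM (SD, n = 3 each), a log2 fold change of 1.84 (SE 0.36, adjusted p = 0.0177, edgeR), the lowest adjusted p of the members. The 2 other members with this activity were not called. Adamts2 had 55.4, 45.1 and 38.2 CPM in WT and 24.9, 41.2 and 72.7 CPM in sST2-KO libraries (log2 fold change -0.003, SE 0.37, adjusted p = 0.997, edgeR), and Adamts3 had a log2 fold change of 0.21.

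Adamts5, the main aggrecan-cleaving enzyme of cartilage, had 42.4, 12.0 and 26.8 CPM in WT and 21.6, 25.8 and 67.0 CPM in sST2-KO libraries, with overlap and a log2 fold change of 0.49 (SE 0.55, adjusted p = 0.558, edgeR). The other proteoglycanases tested, Adamts8, Adamts9 and Adamts15, had log2 fold changes of -0.10 to 0.55, and the members Adamts6, Adamts7, Adamts10 and Adamts12 had log2 fold changes of -0.87 (Adamts12) to 1.42 (Adamts6), with none called by edgeR. Adamts6 and Adamts7 were higher in every sST2-KO library, with adjusted p values of 0.0770 and 0.0527 by edgeR, and DESeq2 called both higher.

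Many members were highest in the same libraries. Of the 45 members tested, 27 (60%) had their highest sST2-KO value in replicate 3, against 36.3% of all genes tested, and 24 (53.3%) had their highest WT value in replicate 1, against 37.2% of all genes. Within their groups, these libraries had the highest sums of fibroblast, macrophage, skeletal muscle and mast cell markers. Mmp2, Mmp3, Mmp19 and Adamts5 had their 2 highest values of all 6 libraries in WT replicate 1 and sST2-KO replicate 3. None of these 4 was called, and the part of these cell types in their levels was not tested.

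The 9 calls were recomputed with each library left out. Without sST2-KO replicate 1 all 9 were called again, and without WT replicate 3 none was, when 58 of all genes were called. In the fit without WT replicate 3, 12 of 45 members and 3797 of 15085 genes had an unadjusted p under 0.05. Adam12 remained the single call without WT replicate 2, where 871 of all genes were called. There, 13 of 45 members and 4407 of 14846 genes had an unadjusted p under 0.05. Without sST2-KO replicate 3, 3 of the 9 (Adam12, Adamts14 and Timp4) were called, without sST2-KO replicate 2, 5 of the 9 (Adam19, Adamts14, Mmp8, Mmp9 and Timp1), and without WT replicate 1, 4 of the 9 (Adam12, Adam19, Adamts14 and Timp4). The direction of the 9 members was the same in each of these fits. The log2 fold change lay between 1.66 and 2.12 for Adamts14, between 2.56 and 3.92 for Mmp9, between 2.60 and 3.48 for Mmp8, between 1.82 and 3.26 for Adam8, between 1.20 and 2.85 for Timp1 and between 1.02 and 1.87 for Adamts4. It lay between 1.05 and 1.62 for Adam19, between -1.98 and -1.35 for Timp4 and between -3.32 and -2.15 for Adam12.

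**Figure D5:**
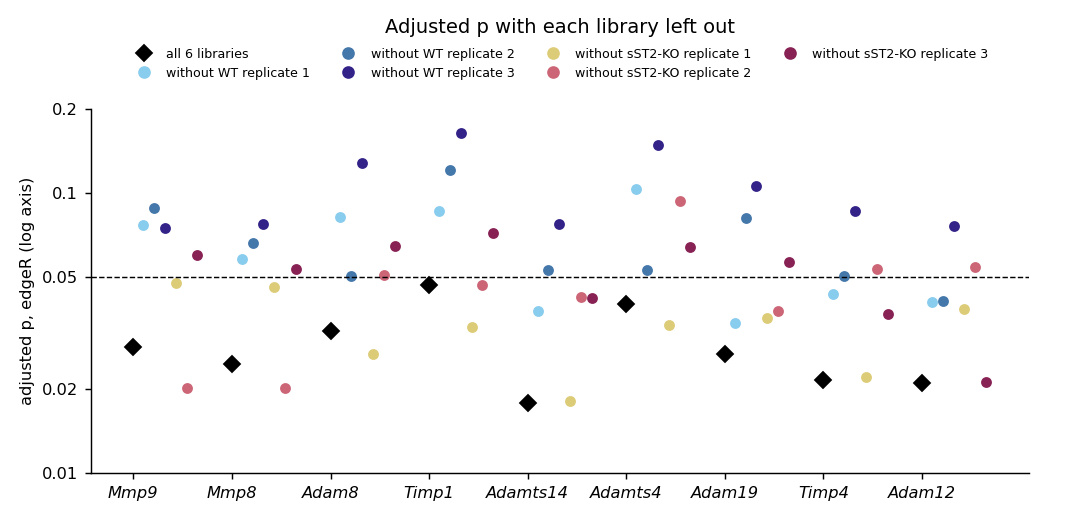
Adjusted p (edgeR, log axis) of the 9 called members with all 6 libraries (black diamonds) and with each library left out (coloured circles), with the threshold of 0.05 as a dashed line. The points without WT replicate 3 lie above the line for all 9 members, between 0.0748 and 0.164, and those without sST2-KO replicate 1 lie below it.

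Genes that activate or restrain these enzymes were examined as a list of 22, of which 21 were tested (median log2 fold change 0.05). By edgeR, 3 (14.3%) were called higher and 1 (4.76%) lower, against 9.04% and 7.1% of all genes tested. Plaur encodes the urokinase receptor, which takes part in the plasmin-driven activation of pro-MMPs, and it rose by 1.24 on the log2 scale (adjusted p = 0.0371). Thbs1 encodes thrombospondin 1, which binds MMP2 and MMP9, and it rose by 2.27 on the log2 scale (adjusted p = 0.0266). Pcsk6 encodes a proprotein convertase, a class of enzymes that activates pro-ADAMs and membrane-type MMPs. It had 66.0, 64.7 and 106.6 CPM in WT and 16.6, 24.0 and 12.3 CPM in sST2-KO libraries (log2 fold change -2.17, SE 0.32, adjusted p = 0.0136, edgeR). Rhbdf2, named here after its values were seen, encodes iRhom2, the partner that ADAM17 needs to mature. It had 33.0, 30.7 and 36.1 CPM in WT and 58.1, 61.0 and 61.4 CPM in sST2-KO libraries, a log2 fold change of 0.85 (SE 0.16, adjusted p = 0.0163, edgeR), which is under 2-fold. Without WT replicate 3 Plaur, Thbs1, Pcsk6 and Rhbdf2 all had an adjusted p above 0.05. Of the 6 fits that left out a library, Plaur stayed under 0.05 in 1 and Thbs1 in 2.

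Substrates shed by ADAM10 or ADAM17 made up a list of 24, of which 20 were tested (median log2 fold change 0.55). By edgeR, 4 (20%) were called higher and 0 lower, against 9.04% and 7.1% of all genes tested. DESeq2 called 7 higher and 1 lower, against 1668 and 1314 of 24599 genes. Hbegf, which encodes a ligand of the EGF receptor, rose by 2.89 on the log2 scale (adjusted p = 0.0167), and Cd44, which encodes a hyaluronan receptor, by 2.52 (adjusted p = 0.0287). Tnf encodes tumour necrosis factor and had 0.933, 1.41 and 0.740 CPM in WT and 5.02, 5.34 and 6.81 CPM in sST2-KO libraries (log2 fold change 2.45, SE 0.37, adjusted p = 0.0136, edgeR). The sST2-KO values of Tnf were close together and all above WT. Hbegf, Cd44 and Tnf all passed without sST2-KO replicate 1 and none of them passed without WT replicate 3. Of the 6 fits that left out a library, Tnf was called in 5, Hbegf in 4 and Cd44 in 2. Transcript counts do not measure shedding.

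Among 11 listed metzincins and other matrix proteases outside the 4 families, 7 were tested, with a median log2 fold change of -0.26. By edgeR, 2 (28.6%) were called higher and 1 (14.3%) lower, against 9.04% and 7.1% of all genes tested. Tll1, which encodes a tolloid-like procollagen C-proteinase, had 1.87, 0.848 and 0.616 CPM in WT and 5.51, 13.2 and 12.6 CPM in sST2-KO libraries (log2 fold change 3.19, SE 0.53, adjusted p = 0.0150, edgeR). Ece1, which encodes the endothelin-converting enzyme, was called higher too (log2 fold change 1.33, adjusted p = 0.0141), and Mme, which encodes neprilysin, was called lower (-1.54, adjusted p = 0.0238). None of these 3 was called without WT replicate 3, and Mme lost its call in 4 of the 6 fits that left out a library, with adjusted p values of up to 0.0921. Of 5 ADAMTS-like genes, which encode matrix proteins without a protease domain, 0 were called by edgeR or DESeq2 and 1 had an unadjusted p under 0.05 by edgeR, and their log2 fold changes ran from -0.69 to 0.86. Of 17 tested genes of non-collagen matrix proteins that these enzymes cut, 0 were called higher and 1 (5.88%) lower by edgeR. Their median was -0.01, and DESeq2 called 1 in each direction. An unadjusted p under 0.05 was found by edgeR in 5 of them, against 5269 of all 14542 genes. The call was Lama2, which encodes a laminin chain, with 45.8, 19.0 and 27.6 CPM in WT and 11.4, 12.0 and 9.97 CPM in sST2-KO libraries (log2 fold change -1.47, SE 0.33, adjusted p = 0.0248, edgeR). Lama2 lost the call without WT replicate 3 and without each of the sST2-KO libraries in turn, with adjusted p values of up to 0.0796. Vcan encodes versican, the substrate of ADAMTS1 and ADAMTS4, and its log2 fold change of 1.88 (SE 0.55) had an adjusted p of 0.0511 (edgeR).

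The rows under 10 counts hold the family genes that were nearly silent in this tissue. The 16 rows at 0 in every library were Adam6a, Adam7, Adam18, Adam20, Adam24, Adam25, Adam26a, Adam26b, Adam28, Adam29, Adam34, Adam39, Mmp1a, Mmp1b, Mmp7 and Mmp20, many of which are genes of testis or tooth. The 7 members that were not tested had at most 1.36 CPM in any library.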

How the data were processed

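BAT RNA-seq of 3 WT and 3 sST2-KO mice was analyzed from the gene counts that the authors deposited, which are raw counts per gene symbol without normalization. The authors aligned 150 bp paired-end reads to mm39 with HISAT2 and counted them with htseq-count. Per the submitters' processing notes, the tools include FastQC 0.12.1 and HISAT2 2.2.1. Libraries were grouped by the sample labels, and 0 columns were unused. In 27 rows the symbol had become a date. They stayed in the fit.

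Counts were fitted over the whole table in R 4.3.3 with edgeR 4.0.16 (filterByExpr, TMM, glmQLFit and glmQLFTest, no covariate), and p values were adjusted by Benjamini-Hochberg over 14542 genes. SE is the log2 fold change divided by the square root of F. The common biological coefficient of variation was 0.325. Libraries of a group differed by a chi-square of at least 27.2 per degree of freedom. On data simulated for the sST2-KO and WT comparison, 94.5% of 199 changed genes among 14752 were recovered, with 7 false calls. These values hold for the simulated data only, and recovery at the fold changes and spread of the real libraries was not tested. Depth limits low genes. A group with at most 3 counts in each library would be at the floor, and no member with values per library was. Of the members not tested, Adam5 and Adamts20 were at the floor in sST2-KO and Adam32 in WT. Whether the 3 mice of a group share a litter is not given, so p values measure the spread between these libraries.

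Gene positions, exon lengths and promoters are from GENCODE on GRCm39, in which all 79 symbols matched. Promoters were the 250 bases before the canonical start. Members, role lists and marker lists were chosen with earlier results of these data known. Values per library were given for the Timp genes, 17 Mmp, Adam and Adamts genes listed by role, and all called members, and for at most 4 genes of each other list by size of change. Some genes that were analyzed are not reported here. As alternatives, each library was left out, the replicate number was added as a block, RLE factors or total counts replaced TMM, DESeq2 1.42.0 replaced edgeR, and 2 other filters, other thresholds and robust estimation were used.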

Additional observations from a re-analysis of the deposited data

How the results depend on the processing

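With RLE factors, robust estimation, total counts and no filter, and with at least 10 counts in every library, all 9 members were called, and 0 to 2 were added. With total counts the median over all genes moved from 0.03 to 0.29, and 1840 genes were called higher and 691 lower, against 1315 and 1033. DESeq2 called 14 of 52 members, the 9 included, with 10 higher and 4 lower. Over all 24599 genes it called 1668 higher and 1314 lower, so calls rose in the whole table too. An unadjusted p under 0.05 with more than 2-fold gave 10 members higher and 4 lower of 45. Over all 14542 genes that rule gave 1868 higher and 1367 lower. Leaving out each library gave 0 to 9 members called higher, 0 to 3 called lower, 36 to 1383 genes higher and 22 to 998 genes lower. WT replicate 3 gave the lowest counts, 58 genes in all, and the cause was not tested.

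The labels do not say whether same-numbered libraries are paired. Their deviations from the group means correlated by -0.06, 0.21 and -0.31. With 3 libraries in each group these values cannot settle whether they share a batch or litter. With the replicate block 0 members and 0 genes were called in either direction, while 14 members and 4623 genes had an unadjusted p under 0.05. Adding the block leaves fewer degrees of freedom.

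Leaving out a library turned the direction of 17 of the 45 members tested, none of them called. For the 7 of these with values per library above, leaving out libraries gave log2 fold changes of -0.34 to 0.24 for Timp3, -0.08 to 2.62 for Mmp12, -0.40 to 1.40 for Mmp13, -0.27 to 0.42 for Mmp19, -0.04 to 0.47 for Adam17, -0.20 to 0.98 for Adamts5 and -0.49 to 0.30 for Adamts2. Adamts2 also gave 0.25 with total counts and 0.03 with at least 10 counts in every library. Low counts limit Mmp12 and Mmp13.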
